A study of Mus musculus with 4 samples.

Results

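The genes for the proteins of the cytosolic ribosome were described across 4 RNA sequencing libraries, 2 labelled Mst4 KO and 2 labelled WT. Members were the rows of the deposited table whose symbol is that of a large subunit protein (RPL or RPLP with a number) or a small subunit protein (RPS with a number, or RPSA), without pseudogenes and ribosomal S6 kinases. The rule found 85 of the 23258 genes in the table, 53 of the large subunit and 32 of the small subunit. Of these, 77 are core members and 8 are paralogues of core members (RPL3L, RPL7L1, RPL10L, RPL22L1, RPL26L1, RPL36AL, RPL39L and RPS27L).

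The KO libraries are described as gastric tumours of Mst4F/F UBCcre mice and the WT libraries as gastric tumours of wildtype mice. All 4 were of C57BL/6 background, of post natal week 20, from a colony of both sexes. The ubiquitin C promoter that drives this Cre is active in most tissues, so the deletion need not be limited to the tumour epithelium. The sources used here do not give when Cre acted, how the tumours arose or whether the WT mice carried Cre or floxed alleles. No label ties the libraries of one genotype to different mice, so p-values reflect only library-to-library spread, and that spread may be technical.

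The table does not list mouse genes. All 23258 row identifiers carry the human taxon number beside human symbols. Genes are named here as the table names them, and KO and WT mean the libraries so labelled. Library totals ran from 18613533 to 30505281 counts, the largest in WT replicate 1. The deleted gene, listed as STK26, was at 9.07 and 7.36 CPM (counts scaled to the TMM-adjusted library total) in KO and at 54.2 and 54.9 CPM in WT, a log2 fold change of -2.73 (SE 0.26, edgeR adjusted p = 0.834). Even this gene did not pass the test across all genes. On FPKM (fragments scaled to gene length and library total) it was at 5.22 and 5.75 in KO and at 17.23 and 17.24 in WT, a smaller gap, so its RNA was lower in KO and not absent. The counts and FPKM of STK26 imply gene lengths of 1776 and 1311 bases in KO and of 3032 and 3132 bases in WT. Of 10 gastric markers 9 were in the table, and only the proton pump gene ATP4A exceeded 1 CPM (11.4 and 7.0 CPM in KO, 4.96 and 7.95 CPM in WT). TFF2 was at 0 in every library, and the summed level of the 9 was 7.52 to 11.7 CPM in KO and 6.29 to 8.97 CPM in WT. The summed level of 5 immune markers was 14.5 to 18.8 CPM in KO and 20.6 to 36.5 CPM in WT, nearly all of it CD68, and PTPRC did not exceed 0.472 CPM. That of 6 stromal and vessel markers was 109.8 to 133 CPM in KO and 138 to 177 CPM in WT, most of it COL1A1, and COL1A2 did not exceed 0.102 CPM. The part of these cell types in the results below was not tested.

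The cytosolic ribosome translates nearly all cellular proteins. Its small subunit binds the mRNA and reads the codons, and its large subunit joins the amino acids and lets the new chain out through a tunnel. The proteins are used in nearly equal numbers, and in mammals their mRNAs begin with a run of pyrimidines, the 5' terminal oligopyrimidine (TOP) motif, through which mTOR and the RNA-binding protein LARP1 set how strongly they are translated. A library of total RNA measures the amount of these mRNAs and not their translation.

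Ribosomal protein genes took close to the same share of the reads in both KO libraries and in WT replicate 2, and a smaller share in WT replicate 1. The share was 5.685% of all counts in each KO library, against 4.99% in WT replicate 1 and 5.604% in WT replicate 2 (mean 5.69% in KO and 5.30% ± 0.434 in WT, SD, n = 2 each). The exact 95% binomial intervals were 5.67% to 5.70% and 5.67% to 5.70% in KO, and 4.98% to 5.00% and 5.59% to 5.61% in WT. They cover counting error only. In bulk RNA a lower share can come from fewer cells of a type or from less RNA per cell, which cannot be told apart. The KO mean lay 0.388 percentage points above the WT mean, which is less than the spread between the WT libraries, and only 0.0816 points above WT replicate 2. On FPKM the members made up 16.8% and 16.6% of the total in KO and 15.3% and 16.6% in WT.

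Within that share the balance of the subunits differed in the same library. Large subunit genes had 1.42 and 1.43 times the summed counts of small subunit genes in KO, against 1.49 and 1.41 times in WT. WT replicate 1 was thus the highest of the 4, and WT replicate 2 the lowest. On summed FPKM the ratio was 1.40 and 1.41 in KO and 1.45 and 1.41 in WT, so WT replicate 1 was again the highest. The mean ratio on counts was 1.43 ± 0.00190 in KO and 1.45 ± 0.0590 in WT (SD, n = 2 each), a difference smaller than the spread between the WT libraries. Small subunit genes alone took 2.345% and 2.342% of counts in KO and 2.003% and 2.327% in WT. Large subunit genes took 3.340% and 3.343% in KO and 2.99% and 3.28% in WT.

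**Figure D1:**
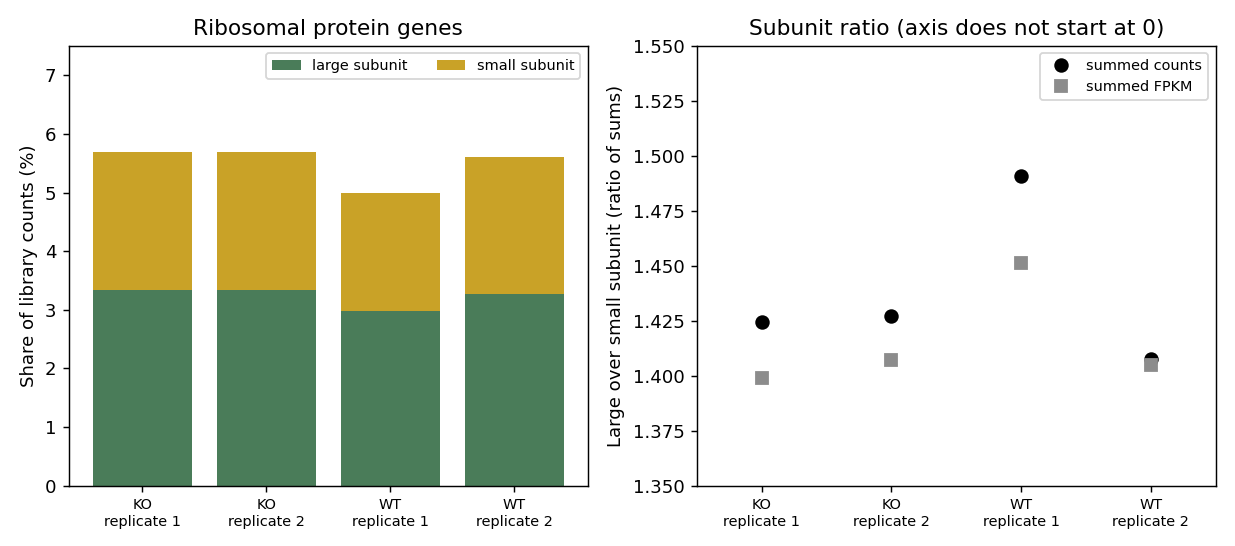
Left, percentage of each library's counts on large and small subunit genes (stacked bars). Right, the ratio of summed large to small subunit values per library, on counts and on FPKM. WT replicate 1 has the lowest share (4.99%) and the highest ratio (1.49 on counts).

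Levels among the members were compared per length, on FPKM. Of the 77 core members, 75 averaged at least 200 FPKM, and the order of members was close to the same in every library. The median core member was at 917 and 912 FPKM in KO and at 790.2 and 942.5 FPKM in WT. The lower and upper quartiles were 619 and 1232 FPKM in KO replicate 1, 677 and 1246 FPKM in KO replicate 2, 559.5 and 1169 FPKM in WT replicate 1, and 631 and 1261 FPKM in WT replicate 2. Spearman's rho across the 77 core members was 0.979 between the KO libraries and 0.930 between the WT libraries. It was 0.986 and 0.981 between the KO libraries and WT replicate 2, against 0.914 and 0.942 between the KO libraries and WT replicate 1. These correlations are across genes, which are not independent replicates and share read length, annotation and base composition.

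The most abundant members per length included parts of both subunits. RPS2, at the entry of the mRNA channel, was at 2016 and 2389 FPKM in KO and at 2076 and 2075 FPKM in WT. RPL7A, of the large subunit, was at 2041 and 2151 FPKM in KO and at 2016 and 2118 FPKM in WT. Both were close to level across the genotypes. RPS3A was at 2008 and 1644 FPKM in KO and at 1621 and 1859.8 FPKM in WT, so the genotypes overlapped. RPS6, the substrate of the S6 kinases, was at 1686 and 1594 FPKM in KO and at 1567 and 2053 FPKM in WT, with WT replicate 2 the highest.

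Only RPL13 and RPS28 averaged under 200 FPKM among the core members. RPL13 was at 46.1 and 47.5 FPKM in KO and at 41.7 and 47.9 FPKM in WT. On CPM it was also low, at 150.1 to 155 CPM in KO and 135 to 145 CPM in WT. RPL9, for example, was at 210 and 184 CPM in KO and at 182 and 187 CPM in WT. The counts and FPKM of RPL13 imply a gene length of 3448 and 3238 bases in KO and of 3137 and 2988 bases in WT. That is the second longest of the members after RPL7L1, so a long gene model lowers its FPKM further. RPS28 was far lower on both scales, with 21.0 and 47.4 counts in KO and 165 and 39.6 counts in WT. Its FPKM was 2.06 and 4.68 in KO and 12.8 and 3.11 in WT. Ribosomal protein genes have many near-identical processed pseudogenes, and the sources used here do not say how reads that match several copies were assigned, so levels of single members are uncertain. The table holds 10 rows named as their pseudogenes. One of them, RPSAP58, had 5302 and 5432 counts in KO and 5078 and 5457 counts in WT, beside 16394.5 and 17247 counts of its parent RPSA in KO and 18783 and 15833 in WT. A readthrough row that overlaps RPL36A, RPL36A-HNRNPH2, had 4937 and 4421 counts in KO and 4036 and 4240.0 counts in WT.

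**Figure D2:**
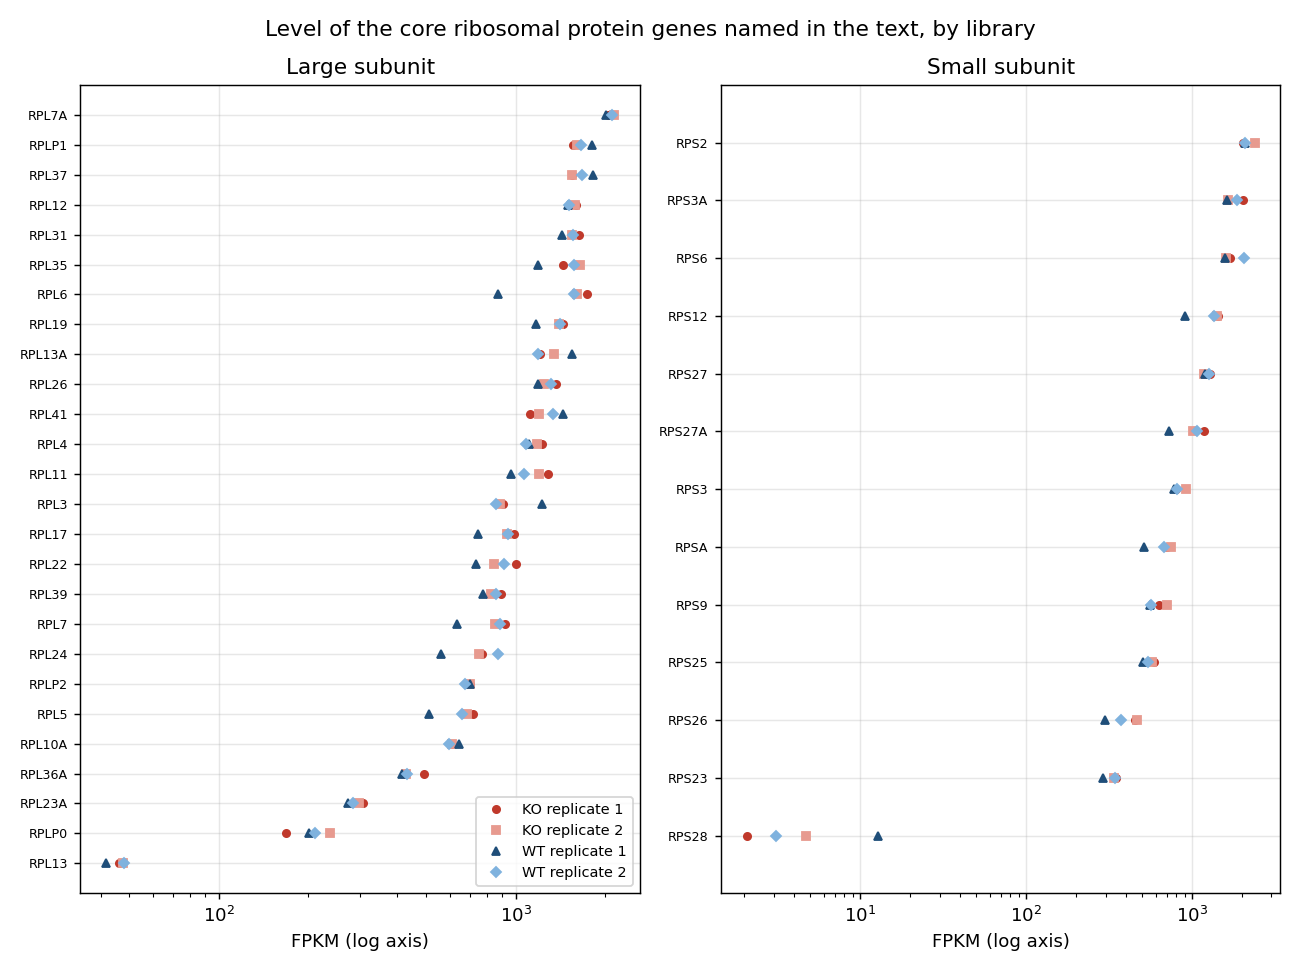
FPKM (log axis) of the large and small subunit core members named in the text, ordered by their mean, with 1 point per library. WT replicate 1 stands left of the other libraries for RPL6, RPS12 and RPS27A and right of them for RPL3, and RPS28 lies far below the others shown.

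KO was then compared with WT, libraries with less against libraries with more RNA of STK26, which encodes MST4, a kinase of the STRIPAK complexes. No member passed the test, and nearly all fold changes were small. After the filter on low counts 83 of the 85 members could be tested (51 large, 32 small). The edgeR quasi-likelihood test, with Benjamini-Hochberg adjustment over all 16030 genes, called 0 of the 83 members at adjusted p under 0.05, and 0% of all genes. At unadjusted p under 0.05 there were 0 members, against 4.17% of all genes tested. DESeq2 also called 0 members (0.25% of all genes) with 0 at unadjusted p under 0.05 (5.9% of all genes). So did limma-voom, with 0 called and 0 at unadjusted p under 0.05 (3.66% of all genes), and limma-trend on FPKM, with 0 and 0 (3.2%). All 83 members had an edgeR adjusted p of at least 0.834.

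Fold changes lay on both sides of 0. In edgeR 52 members were higher and 31 lower in KO, with a median log2 fold change of 0.05, against -0.01 over all genes tested. The quartiles were -0.06 and 0.11 for the members, and -0.37 and 0.26 for all genes. For 80 of the 83 members (96.4%) the log2 fold change was within 0.5 of 0, against 71.1% of all genes and 81.5% of abundant genes (mean CPM of 100 or more). The 95% interval of the fold change lay within a 2-fold change in either direction for 75 of 83 members (90.4%), against 35.1% of all genes and 56.1% of abundant genes. The median half-width of the interval, which is not adjusted for the number of genes, was 0.58 on the log2 scale. Large subunit genes had a median of 0.04 (30 higher, 21 lower) and small subunit genes of 0.05 (22 higher, 10 lower), and without WT replicate 1 the medians were -0.04 and -0.02. The difference between the subunits was not tested.

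The genotypes overlapped for most members, as they did for most genes. On CPM the KO libraries were both higher than either WT library for 12 of the 83 members, against 18.3% of all genes, and both lower for 6, against 19.1%. The 12 were RPL4, RPL11, RPL12, RPL13, RPL22L1, RPL23A, RPL26L1, RPS9, RPS12, RPS25, RPS26 and RPSA. Those lower included RPL10A, RPL37, RPL39L, RPL41 and RPLP1. Some of these gaps were narrow, as for RPL10A, at 459 and 458 CPM in KO and 500.0 and 464 CPM in WT. On FPKM the counts were 21, against 22.2%, and 3, against 14.9%. The sign of the KO difference was the same on CPM and FPKM for 77 of 83 members, and for the other 6 it did not exceed 0.035 on the log2 CPM scale.

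**Figure D3:**
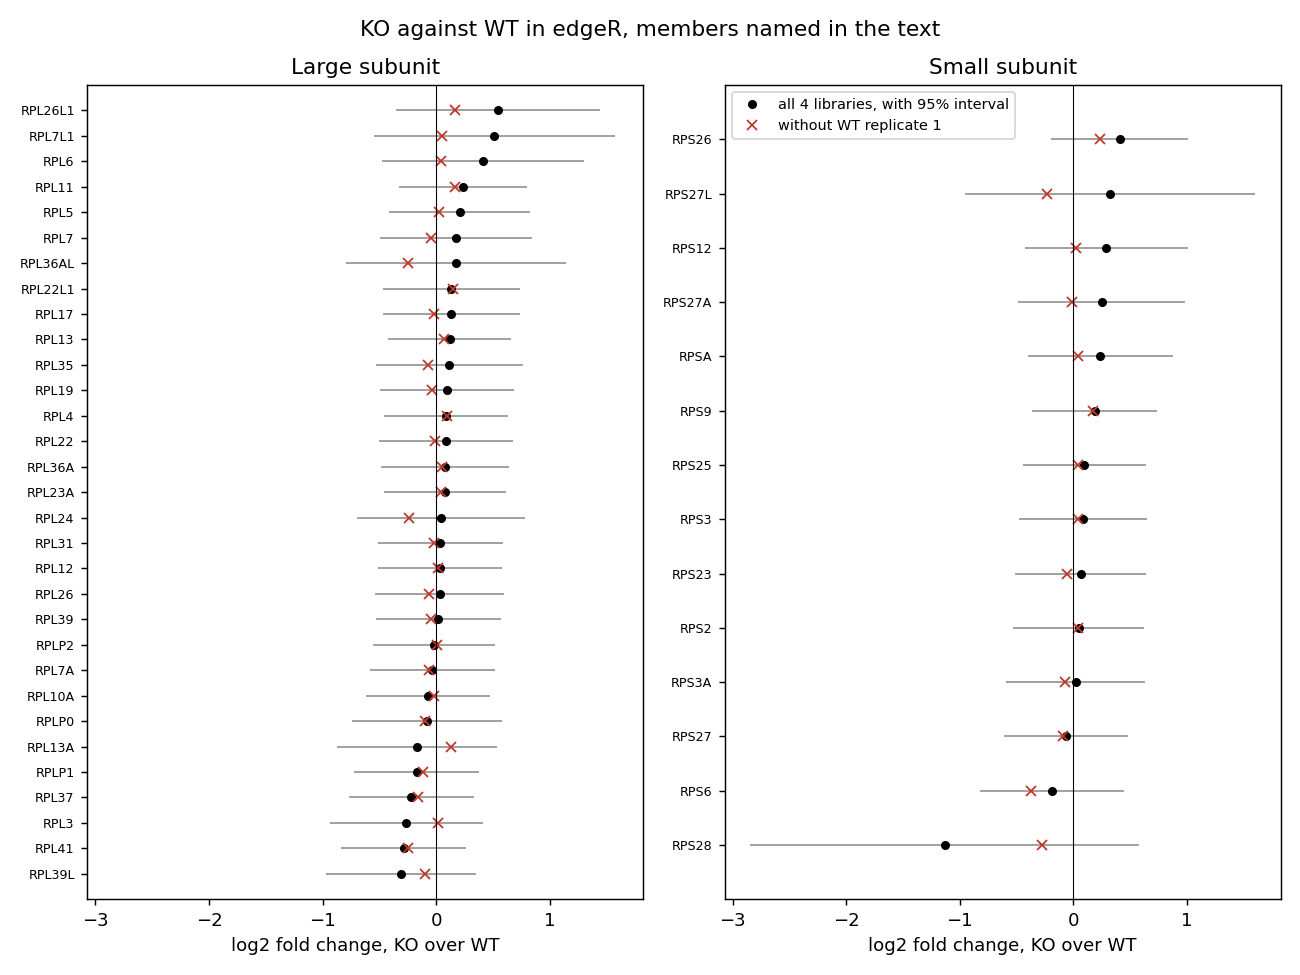
log2 fold change of KO over WT from edgeR for the tested members named in the text, with all 4 libraries (black points, lines are 95% intervals) and without WT replicate 1 (red crosses). All intervals shown span 0, and without WT replicate 1 the value for RPL6 is 0.04, against 0.41 with all libraries.

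The members with the smallest p among those higher in KO were RPS26, RPL26L1, RPL7L1 and RPL6. RPS26, a small subunit protein beside the mRNA exit and a Diamond-Blackfan anaemia gene, was at 291 and 294 CPM in KO and at 193 and 248 CPM in WT. Its genotypes did not overlap, and the mean was 292 ± 2.76 CPM in KO and 221 ± 39.2 CPM in WT (SD, n = 2 each). The log2 fold change was 0.41 (SE 0.24, 95% interval -0.20 to 1.01, edgeR adjusted p = 0.834), against 0.24 without WT replicate 1 and 0.62 without WT replicate 2. RPL6, of the large subunit, was at 1782 and 1641 CPM in KO and at 908 and 1669 CPM in WT. WT replicate 1 alone was low, and the genotypes overlapped. Its log2 fold change of 0.41 (SE 0.35, edgeR adjusted p = 0.834) became 0.04 (SE 0.13) without that library.

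On the other side, RPS28, RPL41, RPL39L and RPL37 were lower in KO with the smallest p. RPL41, the smallest ribosomal protein, was at 476 and 510.0 CPM in KO and at 618 and 584 CPM in WT. Both KO libraries were below both WT libraries, and the mean was 493 ± 24.3 CPM in KO and 601 ± 23.9 CPM in WT (SD, n = 2 each). The log2 fold change was -0.29 (SE 0.22, 95% interval -0.84 to 0.26, edgeR adjusted p = 0.834). RPL37, a zinc-binding protein of the large subunit, was at 918 and 919 CPM in KO and at 1113 and 1025 CPM in WT, with a log2 fold change of -0.22 (SE 0.22). These genotypes did not overlap either. RPS28 had the most negative log2 fold change of the members, -1.13 (SE 0.67, 95% interval -2.85 to 0.58, edgeR adjusted p = 0.834), on 1.1 and 2.45 CPM in KO and 5.61 and 2.16 CPM in WT. It was -0.28 (SE 0.45) without WT replicate 1.

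WT replicate 1 was the lowest or the highest library for most members, as it was for most genes. It lay below the other 3 libraries for 51 of 83 members, against 39.8% of all genes and 52% of abundant genes. It lay above them for 16, against 40.7% and 34.5%. The median member was 0.14 lower in WT replicate 1 than in the mean of the other 3 libraries on the log2 CPM scale, and the median abundant gene 0.15 lower. Between the WT libraries the median absolute log2 difference was 0.19 for the members, against 0.57 for all genes and 0.49 for abundant genes. Between the KO libraries it was 0.10 for the members, against 0.17 and 0.12. From the KO mean to WT replicate 2 it was 0.07 for the members, against 0.20 and 0.13. WT replicate 1 was also the largest library, and the part of library size in these differences was not tested.

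Members departed from the others in WT replicate 1 in both directions. Besides RPL6, 5 members were over 1.5-fold lower there than the mean of the other 3 libraries. They were RPS12 and the paralogues RPS27L, RPL7L1, RPL26L1 and RPL36AL. Between the WT libraries 4 of 83 members (4.82%) differed over 2-fold, against 25.3% of all genes and 17.6% of abundant genes. RPS12 was at 728 and 716 CPM in KO and at 470.4 and 711 CPM in WT. RPS27A, which is made as a fusion with ubiquitin, was at 1110.5 and 958 CPM in KO and at 697 and 1045 CPM in WT. For both, WT replicate 1 was far below the other libraries, and WT replicate 2 was close to KO. RPL3, near the peptidyl transferase centre, was at 1287 and 1260.2 CPM in KO and at 1794 and 1262 CPM in WT. RPL13A was at 1186 and 1316 CPM in KO and at 1672 and 1143 CPM in WT, so for both genes WT replicate 1 was the highest library.

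**Figure D4:**
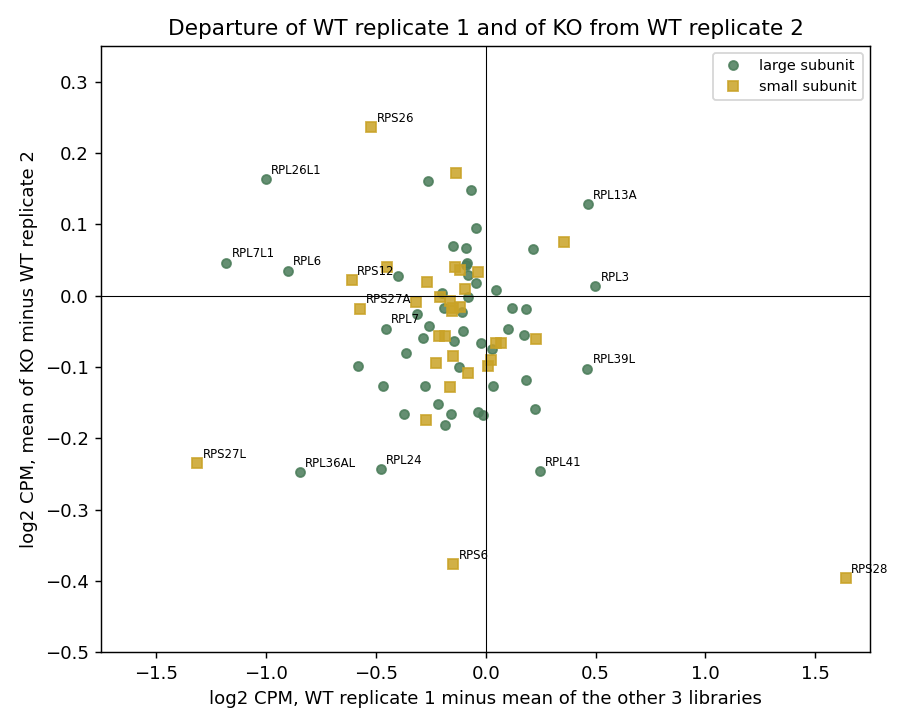
For the 83 tested members, the log2 CPM of WT replicate 1 minus the mean of the other 3 libraries (horizontal) against the mean of KO minus WT replicate 2 (vertical). The horizontal spread, from -1.31 for RPS27L to 1.64 for RPS28, is wider than the vertical spread.

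Leaving out WT replicate 1 left the members without a call and moved many to the other side of 0. In edgeR without that library 0 of 83 members were called, against 2.54% of all genes called higher, 3.93% called lower and 6.46% in all. Of the members 1 was at unadjusted p under 0.05, against 16.7% of all genes. The median log2 fold change was -0.04 (31 higher, 52 lower), against 0.01 over all genes. The sign was the same as in all 4 libraries for 52 members and the opposite for 31. Fold changes of the members lay close to 0 (quartiles -0.06 and 0.11 with all 4 libraries), where a small shift changes the sign. The 95% interval lay within 0.5 of 0 for 75 of the 83 members. This fit has a lone WT library, assumed to vary like the KO libraries, so its intervals do not cover the spread within WT.

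The member with the smallest adjusted p in that fit was RPS6, at 1455 and 1374 CPM in KO and at 1391 and 1836 CPM in WT. Its log2 fold change was -0.37 (SE 0.13, edgeR adjusted p = 0.0648) without WT replicate 1 and -0.19 (SE 0.25, adjusted p = 0.851) with it. WT replicate 1 was at the level of KO for this gene. RPL24, at an intersubunit bridge, was at 442 and 431 CPM in KO and at 332 and 517 CPM in WT, so KO lay between the WT libraries. RPS9 was at 466 and 521 CPM in KO and at 431 and 437 CPM in WT, with both KO libraries above both WT libraries. Its log2 fold change was 0.18 without WT replicate 1 and 0.19 with it (edgeR adjusted p = 0.594 and 0.845).

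Leaving out WT replicate 2 instead gave calls, as it did across the table. Of 83 members 19 were called higher in KO, against 25.2% of all genes, and 4 lower, against 26.1%. The 4 lower were RPS28, RPL3, RPL13A and RPL39L, and the higher ones with the smallest p were RPL7L1, RPS27L, RPL6 and RPL26L1. In this fit WT is WT replicate 1 alone, so it measures the departures given above. Without KO replicate 1 or KO replicate 2 edgeR called 0 members and 0 genes.

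By their place in the ribosome, the members showed no called difference in any group. The P stalk, which recruits elongation factors, is built of RPLP0, RPLP1 and RPLP2 on a base that includes RPL12. RPLP0 was at 196 and 277 CPM in KO and at 245 and 254 CPM in WT, with a log2 fold change of -0.08 (SE 0.26, edgeR adjusted p = 0.942). The KO libraries lay on either side of WT, 0.49 apart on the log2 scale, the widest gap between the KO libraries after RPS28. RPLP1 was at 812 and 833 CPM in KO and at 961 and 892 CPM in WT, and RPLP2 at 348 and 349 CPM in KO and at 359 and 347 CPM in WT. RPLP1 did not overlap between the genotypes, and RPLP2 was level. RPL12 was at 1103 and 1087 CPM in KO and at 1059 and 1081 CPM in WT, a narrow gap between genotypes that did not overlap.

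RPL5 and RPL11 bind the 5S ribosomal RNA, and outside the ribosome the same particle binds MDM2 and stabilises p53. RPL11 was at 847 and 783 CPM in KO and at 654 and 729 CPM in WT, a log2 fold change of 0.24 (SE 0.22, edgeR adjusted p = 0.837), and 0.16 without WT replicate 1. Both KO libraries were above both WT libraries. RPL5 was at 816 and 778 CPM in KO and at 601 and 782 CPM in WT, a log2 fold change of 0.21 (SE 0.24, edgeR adjusted p = 0.845), and 0.03 without WT replicate 1. The 9 listed proteins of the peptide exit tunnel (RPL4, RPL17, RPL19, RPL22, RPL23A, RPL26, RPL31, RPL35 and RPL39) had a median log2 fold change of 0.09 (9 higher, 0 lower), and of -0.02 (2 higher, 7 lower) without WT replicate 1. RPL4, whose loop lines the tunnel, was at 1891 and 1811 CPM in KO and at 1754 and 1732 CPM in WT, without overlap and with a log2 fold change of 0.09 (SE 0.22). WT replicate 1 was the lowest library for 8 of these 9 genes (88.9%), against 39.8% of all genes and 52% of abundant genes. The 6 measured proteins of the mRNA channel and decoding side (RPS2, RPS3 and RPS23 among them) had a median of 0.07, and of -0.00465 without WT replicate 1, and 0 of them separated the genotypes on CPM.

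Of the 6 members over 1.5-fold lower in WT replicate 1, 4 were paralogues. Over 2-fold apart between the WT libraries were 3 of the 6 tested paralogues, against 25.3% of all genes and 17.6% of abundant genes. RPS27L, a p53-induced relative of RPS27, was at 127 and 116 CPM in KO and at 51.7 and 143 CPM in WT. RPL7L1, a relative of RPL7, was at 230.3 and 216 CPM in KO and at 97.2 and 216 CPM in WT. RPL26L1, which is nearly identical to RPL26, was at 71.8 and 75.2 CPM in KO and at 35.4 and 65.6 CPM in WT. In all of these WT replicate 1 was the lowest library, as it was for RPL36AL, at 142 and 130.1 CPM in KO and 80.1 and 161 CPM in WT. RPL39L, known from testis and tumours, had the opposite pattern, with 23.5 and 26.9 CPM in KO and 35.4 and 27.0 CPM in WT. Of these 5, RPL26L1 and RPL39L separated the genotypes on CPM. For RPL39L this was nearly a tie, at 26.90 CPM in KO replicate 2 and 26.98 CPM in WT replicate 2. On FPKM its genotypes overlapped.

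RPL22L1, whose mRNA RPL22 restrains in mouse, was at 20.1 and 19.2 CPM in KO and 18.1 and 17.7 CPM in WT, a narrow gap without overlap. Its log2 fold change was 0.13 (SE 0.24, 95% interval -0.47 to 0.73, edgeR adjusted p = 0.884). The full set of values for the others was 0.54 (SE 0.35) for RPL26L1, 0.51 (SE 0.41) for RPL7L1, -0.31 (SE 0.26) for RPL39L, 0.32 (SE 0.50) for RPS27L and 0.17 (SE 0.38) for RPL36AL. Without WT replicate 1 they were 0.17, 0.05, -0.10, -0.23 and -0.24, in the same order, and none passed in edgeR in either fit.

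The paralogues of striated muscle, RPL3L, and of testis, RPL10L, were at the detection limit and left out by the filter. RPL3L had 3.41 and 3 counts in KO and 2.20 and 2 counts in WT. RPL10L had 2.01 and 2.20 counts in KO and 0 in both WT libraries. Per length, RPL36AL stood at 49.1% and 51.8% of the FPKM of RPL36A in KO and at 32% and 61.6% in WT. RPS27L stood at 10.3% and 10.5% of RPS27 in KO and at 4.60% and 11.3% in WT. RPL22L1 stood at 2.74% and 2.95% of RPL22 in KO and at 3.33% and 2.54% in WT. Paralogues share sequence with their parents, so these ratios depend on how shared reads were assigned.

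**Figure D5:**
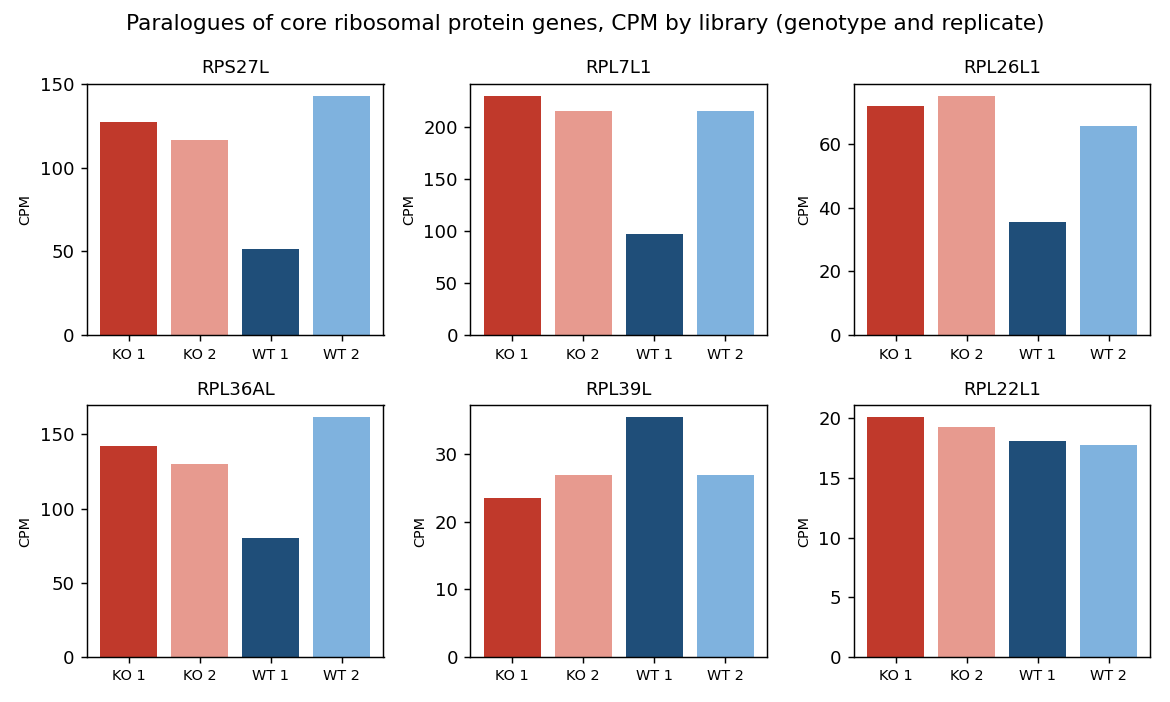
CPM of the 6 tested paralogues in each library (bars start at 0, each panel has its own scale, no error bars because each bar is 1 library). WT replicate 1 is the lowest library for RPS27L (51.7 CPM), RPL7L1, RPL26L1 and RPL36AL and the highest for RPL39L.

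Of ribosomal proteins outside the naming rule, FAU and RACK1 were called by neither edgeR nor DESeq2. FAU, which yields a small subunit protein, was at 194 and 212 CPM in KO and at 161 and 212 CPM in WT. RACK1, the scaffold on the head of the small subunit, was at 1042 and 1106 CPM in KO and at 1365 and 1189 CPM in WT, a log2 fold change of -0.25 (SE 0.22, edgeR adjusted p = 0.834). The genotypes overlapped for FAU and not for RACK1.

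Other mRNAs with a TOP motif did not pass either, and WT replicate 1 was more often high than low for them. Of 17 such genes edgeR called 0, with 0 at unadjusted p under 0.05 and 0 called by DESeq2. Their median log2 fold change was -0.06 (8 higher, 9 lower), and 0.02 without WT replicate 1. WT replicate 1 was above the other libraries for 10 of them (58.8%) and below for 4 (23.5%). Over all genes the shares were 40.7% and 39.8%, and over abundant genes 34.5% and 52%. Among the 83 ribosomal protein genes the counts were 16 and 51. This difference between the lists was not tested. EEF2, the translocation factor, was at 1806 and 2163 CPM in KO and at 3607 and 1862 CPM in WT, and PABPC1, which binds poly(A) tails, at 716 and 732 CPM in KO and at 1089 and 743 CPM in WT. EEF1A1, which delivers aminoacyl-tRNAs, was at 4484 and 4473 CPM in KO and at 4998 and 4357 CPM in WT. WT replicate 1 was the highest library for all 3. Without WT replicate 1, in a fit with a lone WT library, the initiation factor gene EIF3F rose by 0.47 (SE 0.15).

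Among 27 genes of translation initiation, elongation and termination, edgeR and DESeq2 called 0 with all 4 libraries. At unadjusted p under 0.05 were 2 in edgeR, EIF1 and EIF4H, against 4.17% of all genes. There were 3 in DESeq2, against 5.9%, EIF4EBP1 being the other. EIF1, which guards start codon choice, was at 349 and 328 CPM in KO and at 628 and 517 CPM in WT. EIF4H, a partner of the helicase EIF4A, was at 303 and 314 CPM in KO and at 528 and 453 CPM in WT. In both genes KO lay below both WT libraries, with log2 fold changes of -0.76 (SE 0.23) and -0.67 (SE 0.22), each at an edgeR adjusted p of 0.834. Without WT replicate 1 they fell by 0.61 (SE 0.14) and 0.55 (SE 0.14), in a fit whose lone WT library leaves the spread within WT uncovered. EIF4G2, a relative of the scaffold EIF4G1, was at 1758 and 1553 CPM in KO and at 516 and 1369.8 CPM in WT. WT replicate 1 was the lowest library there, and this held for 22 of the 27 genes (81.5%). The share was 39.8% over all genes and 52% over abundant genes.

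Of 12 listed genes that control the making of ribosomal proteins, edgeR and DESeq2 called 0 with all 4 libraries. At unadjusted p under 0.05 there was 1 in edgeR, against 4.17% of all genes, and 2 in DESeq2, against 5.9%. EIF4EBP1 is in this list and in the one above. With all 4 libraries its edgeR log2 fold change was -1.07, the most negative of each list. EIF4EBP2, which sequesters the cap-binding factor EIF4E until mTOR phosphorylates it, was at 128 and 123 CPM in KO and at 211 and 229.9 CPM in WT. The genotypes were far apart relative to their spread, with 126 ± 3.73 CPM in KO and 221 ± 13.0 CPM in WT (SD, n = 2 each). Its log2 fold change was -0.81 (SE 0.22, edgeR unadjusted p = 0.0119, adjusted p = 0.834). It fell by 0.87 (SE 0.14) without WT replicate 1, in a fit whose lone WT library leaves the spread within WT uncovered. MYC, which drives transcription of ribosomal protein genes, was at 33.9 and 36.5 FPKM in KO and at 49.8 and 24.7 FPKM in WT, so KO lay between the WT libraries. It rose by 0.46 (SE 0.15) without WT replicate 1, and its log2 fold change was -0.13 with it. MTOR was at 162 and 164 CPM in KO and at 108 and 168 CPM in WT, and LARP1 at 267 and 275 CPM in KO and at 217 and 318 CPM in WT. Neither MTOR nor LARP1 passed in edgeR with all 4 libraries or without WT replicate 1.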

How the data were processed

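The deposited table gives, per gene and library, an estimated count and a second value. Per the submitters' processing notes HISAT2, Cufflinks and RSEM were listed, versions and roles unstated, with the build GRCm38.p5, although the rows are human genes. Annotation, strand and assignment of shared reads were not stated in the sources used here. The second deposited value was read as FPKM, because the gene length that counts and this value imply was alike across libraries for most genes. Over 11949 genes averaging 5 CPM or more, the longest was under 1.1 times the shortest for 62.2% and over 1.5 times for 4.28%, STK26 among these. The columns sum to 441772 to 452971. Between 18.8% and 23.7% of the deposited estimated counts were within 0.005 of a whole number. They were rounded, filtered with filterByExpr, scaled by TMM (factors 0.966 to 1.026) and tested with genotype as the only term in edgeR 4.0.16 (glmQLFit, robust, R 4.3.3), with Benjamini-Hochberg adjustment. CPM use TMM-scaled totals. An SE is the absolute log2 fold change over the square root of F, and 95% intervals use that SE and the fit's degrees of freedom. DESeq2 1.42.0 and limma 3.58.1 were alternatives. For limma-trend the fold change is on log2(FPKM + 1), or + 0.1, for a mean FPKM of at least 1. Further alternatives were RLE, upper-quartile and TMM scaling without the members, 2 other filters, each library left out, and the replicate number as a block. The fit was tested on simulated counts.

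Members and lists were chosen with earlier results of these data known, so no list was tested. Values are given by rule for the 6 members of highest FPKM, the 4 smallest p in each direction with all libraries and without WT replicate 1, the 4 furthest departures of WT replicate 1 in each direction, paralogues, P stalk and 5S proteins. RPS17L was not analysed here, and some members are not reported here by name. The choice of other members and of the translation genes given values was made with their values in view.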

Additional observations from a re-analysis of the deposited data

How the results depend on the processing

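The number of members called was 0 under RLE and upper-quartile scaling, TMM without the members, both other filters, DESeq2, limma-voom, the 3 limma-trend settings on FPKM, the replicate block and the crossed block. Leaving out each library in turn gave 0 to 23 members called (0 in all but the fit without WT replicate 2) and 0 to 8702 genes. Over all genes edgeR called 0, DESeq2 40, the replicate block 10 and the crossed block 4. Same-numbered libraries did not deviate together (correlation of deviations from the genotype mean -0.137 across 16030 genes). With 2 libraries per genotype this correlation cannot decide whether the numbers mark a pairing. A crossed numbering, chosen after seeing the data, was also used as a block. The median log2 fold change of the members lay between -0.04 and 0.14 when each library was left out, and between 0.03 and 0.10 under the other settings. RPLP0 reversed, to 0.16, without KO replicate 1, and lay between -0.33 and 0.16 over the libraries left out. The 11 members given full alternatives kept their direction without WT replicate 2. Most of them were chosen by their p with all 4 libraries, and that fit reuses these libraries, so this is not independent support. With all 4 libraries edgeR called 0 of 16030 genes, and STK26 was not called at a log2 fold change of -2.73, so the absence of calls among the members does not show that they are unchanged.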

Other observations

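The difference between the KO libraries and the difference between the WT libraries were related across the members. Across 76 core members without RPS28, the log2 CPM of KO replicate 2 minus KO replicate 1 had a Pearson correlation of 0.37 (Spearman 0.41) with that of WT replicate 1 minus WT replicate 2. Across 2440 genes with an average of 100 CPM or more the correlation was 0.36 (Spearman 0.33). Genes are not independent replicates and share these 4 libraries, so the values are a description.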
